A study of Neogale vison with 6 samples.

Results

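Triglyceride synthesis and lipid droplet turnover were followed through 10 genes named for their place in the pathway, namely GPAM, AGPAT2, LPIN1, LPIN2, DGAT1 and DGAT2 of the synthesis, the droplet coat gene PLIN3, and PNPLA2, ABHD5 and MGLL of the breakdown. Of the 10 genes, 9 were analysed among the 24526 genes of the count table. The current symbol stands in the table for 8 of them, and GPAM carries its older symbol GPAT1 there, beside the description of the mitochondrial glycerol-3-phosphate acyltransferase. DGAT1 was not analysed here. All 9 genes were among the 12148 that passed the filter on low counts.

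The data were RNA-seq counts of Mv1Lu, an epithelial cell line from mink lung, with 3 control libraries, made from untreated cells, and 3 libraries made after cholesterol depletion (CD). For CD, the cells were kept for 16 h with 50 µM lovastatin, a statin that blocks cholesterol synthesis, together with 50 µM mevalonate, an intermediate of that pathway, in medium with 10% lipoprotein-deficient serum (LPDS). The drug, the mevalonate and the change of serum came together, so their shares in a difference cannot be told apart. The labels do not say whether the libraries of a group came from separate cultures, so p-values measure the spread between these libraries, which may be technical. The libraries held 13473820 to 18633764 reads on genes.

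Cells store fatty acids as triglyceride. Acyl chains are added to glycerol-3-phosphate by GPAT enzymes and then by AGPAT enzymes, which gives phosphatidate, lipins remove its phosphate to give diacylglycerol, and DGAT enzymes add the last chain. Phosphatidate and diacylglycerol are also the starting points of membrane phospholipids. The triglyceride collects in lipid droplets, whose surface carries perilipins, and lipolysis releases the chains again in successive steps, from triglyceride to diacylglycerol, monoacylglycerol and glycerol. These genes are best known from adipose tissue and liver, but most cells that take up or make fatty acids use the pathway.

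Of the 9 genes, 5 were higher in CD (LPIN1, DGAT2, PLIN3, PNPLA2 and ABHD5), 1 was lower (MGLL) and 3 did not pass the test (GPAM, AGPAT2 and LPIN2). A gene was called when its edgeR p-value, with Benjamini-Hochberg adjustment across every tested gene, was under 0.05. Over all tested genes 47.7% were called, 24.8% as higher and 22.9% as lower, so that a call as such was common in these data. The control and CD libraries did not overlap for the 6 called genes, and did not overlap for 58.0% of all tested genes. The median log2 fold change of the 9 genes was 1.40, beside 0.06 over all tested genes. The genes were chosen with earlier results of these data known, so this contrast does not test the pathway. GPAM and AGPAT2, of the early acylations, had smaller values than each of the 5 genes that rose. In bulk RNA, less RNA of a gene per cell and fewer cells that carry it cannot be told apart. Levels are given as CPM, the counts of a gene relative to the TMM-scaled library size, which are not corrected for gene length and so compare libraries for a gene, not genes with each other.

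**Figure D1:**
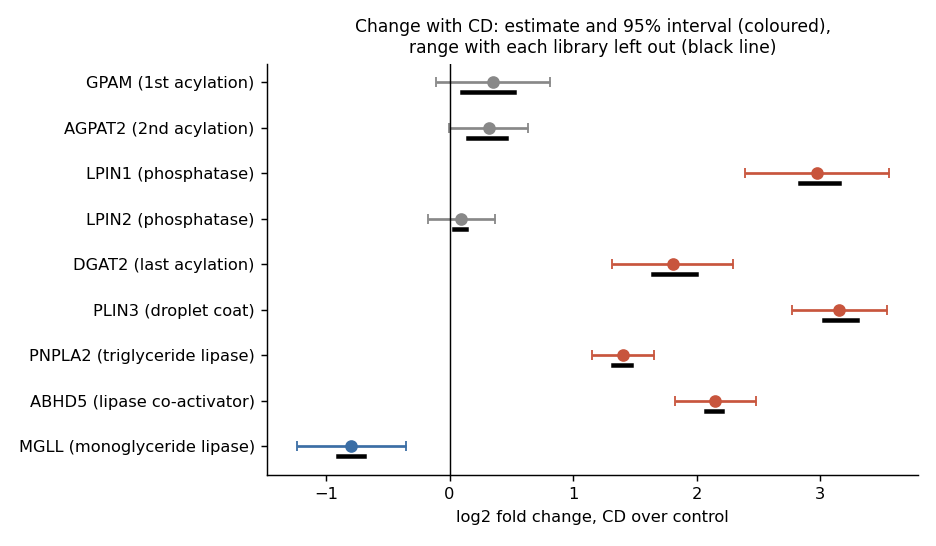
Log2 fold change of CD over control for the 9 genes (x axis), ordered from synthesis to breakdown, with points and coloured bars for the edgeR estimate and its 95% interval, orange for higher, blue for lower and grey for not called, and a black line for the range with each library left out. LPIN1 at 2.97 and PLIN3 at 3.15 lie farthest to the right, the intervals of GPAM, AGPAT2 and LPIN2 include 0, and MGLL at -0.79 is the only gene of the 9 below 0.

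CD replicate 3 stood slightly apart from the other CD libraries. Its Spearman correlation across genes was 0.971 with CD replicate 1 and 0.984 with CD replicate 2, beside 0.991 between those and at least 0.995 among the controls. Reads on no gene were 41.4% of CD replicate 3, beside 31.1% and 31.8% of CD replicates 1 and 2. Unmapped reads were 9.37%, beside 3.54% and 4.33%. In control replicates 1, 2 and 3 unmapped reads were 18.4%, 13.6% and 4.25%. The part of these differences in the results was not tested. Values without CD replicate 3 are given beside several of the results. As a check of the treatment, HMGCS1, which encodes the HMG-CoA synthase of cholesterol synthesis, was 10.8-fold higher in CD (log2 fold change 3.43 ± 0.17 SE, edgeR adjusted p = 4.17e-07), and SQLE was not analysed here. Of 11 epithelial markers 9 were analysed, and their summed level was 1091 to 1215 CPM in the control and 586 to 671 CPM in the CD libraries, most of it from KRT19, which fell, while CLDN4 was 11.7-fold higher (0.603 CPM in the control and 7.03 CPM in CD, edgeR adjusted p = 9.61e-06). The defining markers CDH1 and EPCAM were near 0 in both groups. They were at 0.181 and 0.162 CPM in the control and 0.390 and 0.048 CPM in CD. In the control and in CD, CLDN7 (0.090 and 0.020 CPM), GRHL2 (0 and 0.113 CPM) and ESRP1 (0.451 and 1.03 CPM) were low as well. OCLN (6.73 and 7.02 CPM) and TJP1 (200 and 162 CPM) did not pass the test. The epithelial label is that given to the cell line, and these markers do not settle it. The alveolar type II genes SFTPB and SFTPC had no read in any library. Of the 5 alveolar type II markers analysed ABCA3 rose, and their sum was 63.2 to 82.0 CPM in the control and 88.2 to 134 CPM in CD. The 7 fibroblast markers summed to 4266 to 4538 CPM in the control and 3922 to 4969 CPM in CD, most of it from VIM, and 4 of them fell, of which COL1A2 was called in 8 of 14 alternative fits.

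Among adipocyte markers, which matter here because fat cells use this pathway most, LEP had no read in any library, FABP4 averaged 0.122 CPM in the control and 0.191 CPM in CD, and PLIN1 0.073 and 0.130 CPM. The summed level of the 4 markers analysed was 41.7 to 43.3 CPM in the control and 22.8 to 39.9 CPM in CD, most of it from LPL. Of the 5 leukocyte markers analysed CD68 and CSF1R rose, and their sum went from 5.57 to 6.67 CPM in the control to 21.1 to 26.0 CPM in CD, while LYZ had no read and PTPRC 1 read in the 6 libraries together. The 5 endothelial markers summed to 206 to 221 CPM in the control and 75.9 to 124 CPM in CD. Nearly all of this sum came from TEK, which fell, while VWF rose from 5 reads in the controls to 56 in the CD libraries. CDH5 had 1 read in all. The part of the markers that moved in the results below was not tested.

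GPAM encodes the GPAT enzyme of the outer mitochondrial membrane, which performs the first acylation. Its level was 44.9, 42.8 and 48.7 CPM in control replicates 1, 2 and 3 and 76.7, 57.1 and 39.9 CPM in CD replicates 1, 2 and 3. CD replicates 1 and 2 were above every control and CD replicate 3 was below every control. The mean went from 45.5 ± 2.97 to 57.9 ± 18.4 CPM (SD, n = 3 each), and the log2 fold change of 0.35 ± 0.21 SE, with a 95% interval of -0.11 to 0.81, did not pass the test (edgeR adjusted p = 0.19). Without CD replicate 3 it was 0.52 and passed (edgeR adjusted p = 2.12e-04), and without CD replicate 1 it was 0.10 and did not (adjusted p = 0.61).

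AGPAT2 encodes the enzyme of the second acylation, in the endoplasmic reticulum, and its loss is known as a cause of inherited lipodystrophy. It was at 134, 130 and 147 CPM in the control and 139, 171 and 202 CPM in the CD libraries. CD replicate 1 lay within the control range and the other CD libraries lay above it. The log2 fold change of 0.32 ± 0.14 SE (95% interval -0.0030 to 0.64) did not pass the test (edgeR adjusted p = 0.0939), and without CD replicate 1 it was 0.46 and passed (adjusted p = 0.00867). Without CD replicate 3 it was 0.15 (edgeR adjusted p = 0.26). Over the 3 CD libraries GPAM and AGPAT2 stood in opposite order, since CD replicate 1 was the highest for GPAM and the lowest for AGPAT2. Their log2 ratio, -1.58 ± 0.012 in the control (SD, n = 3), was -0.85, -1.58 and -2.32 in CD replicates 1, 2 and 3. The mean ratio differed by -0.0046 between the groups (exact permutation test, two-sided, p = 0.9, adjusted over 3 differences p = 0.9), while its spread was wider in CD.

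The other genes of these acylation steps moved in both directions. GPAT3, a GPAT enzyme of the endoplasmic reticulum, was at 13.8, 15.2 and 14.5 CPM in the control and 25.5, 25.6 and 26.4 CPM in CD, a 1.78-fold higher level (log2 fold change 0.83 ± 0.14 SE, edgeR adjusted p = 7.62e-04). All CD libraries were above all controls and close to each other. GPAT4, of the same compartment, had a log2 fold change of -0.25 ± 0.12 SE (edgeR adjusted p = 0.11), and GPAT2 had no read in any library. Of the GPAT reads, GPAT3 had 9.44 ± 0.76% in the control and 16.2 ± 2.83% in CD, GPAM 29.5 ± 0.50% and 35.0 ± 5.87%, and GPAT4 61.0 ± 0.47% and 48.9 ± 3.06% (SD, n = 3). These shares are of reads and depend on gene length, so only their change between the groups can be read.

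AGPAT4, also called LPAAT-delta, was 1.97-fold higher in CD, with 46.0, 47.1 and 54.4 CPM in the control and 83.2, 101 and 107 CPM in CD (log2 fold change 0.98 ± 0.14 SE, edgeR adjusted p = 2.54e-04). LCLAT1, which encodes an acyltransferase known for remodelling cardiolipin and phosphatidylinositol, was lower, with 45.7, 42.8 and 51.4 CPM in the control and 23.6, 18.6 and 12.8 CPM in CD (log2 fold change -1.35 ± 0.21 SE, edgeR adjusted p = 4.99e-04). Neither gene had overlapping groups. AGPAT1 (-0.18 ± 0.14 SE, edgeR adjusted p = 0.31) and AGPAT3 (0.04 ± 0.13 SE, adjusted p = 0.84, with a sign that turned when control replicate 2 or CD replicate 2 was left out) did not pass the test. AGPAT5 is not among the genes analysed by symbol. AGPAT2 took 44.7 ± 0.89% of the reads of AGPAT1 to AGPAT4 in the control and 44.8 ± 4.10% in CD (SD, n = 3), AGPAT4 went from 16.1 ± 0.80% to 25.6 ± 0.66%, and AGPAT1 from 26.8 ± 1.26% to 19.3 ± 3.65%.

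Lipins are the phosphatidate phosphatases of this pathway, and lipin-1 is also known as a co-regulator of transcription in the nucleus. LPIN1 was at 1.93, 2.24 and 2.48 CPM in the control and 20.6, 20.0 and 11.9 CPM in CD. Every CD library was well above every control, and CD replicate 3 was the lowest of the CD libraries. The mean rose from 2.22 ± 0.27 to 17.5 ± 4.88 CPM (SD, n = 3 each), a 7.85-fold change with a 95% interval of 5.24 to 11.7 (log2 fold change 2.97 ± 0.26 SE, edgeR adjusted p = 1.37e-05). The controls rest on 27, 31 and 45 reads and the CD libraries on 336, 326 and 165. Of the 12148 tested genes 122 had a larger log2 fold change. Without CD replicate 3 the log2 fold change of LPIN1 was 3.15.

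LPIN2, the lipin known for its expression in liver, was at 50.9, 58.9 and 57.0 CPM in the control and 64.6, 56.4 and 57.2 CPM in CD. The groups overlapped, and the log2 fold change of 0.10 ± 0.12 SE, with a 95% interval of -0.18 to 0.37, did not pass the test (edgeR adjusted p = 0.54). LPIN3 (-0.14 ± 0.13 SE, edgeR adjusted p = 0.43) did not pass it either. The log2 ratio of LPIN1 to LPIN2, computed with 0.5 CPM added, was -4.37 ± 0.088 in the control and -1.77 ± 0.40 in CD (SD, n = 3 each). It differed by 2.60, a 6.05-fold change of the ratio, and the groups did not overlap (exact permutation test, two-sided, p = 0.1, adjusted over 3 differences p = 0.15). With 3 libraries against 3 this test cannot go below 0.1, so it cannot reach 0.05.

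In the control, LPIN1 held 2.10 to 2.47% of the reads on the lipins, and in CD 11.9 to 17.6%. LPIN2 went from 57.8 ± 3.29% to 53.3 ± 3.79% and LPIN3 from 39.9 ± 3.37% to 31.2 ± 1.58% (SD, n = 3). The sum of the lipins was 92.1, 95.8 and 100.4 CPM in the control and 121, 114 and 100.1 CPM in CD, a ratio of the means of 1.16. The sum thus moved far less than LPIN1, and CD replicate 3 lay within the control range of the sum. CNEP1R1, which encodes the regulatory subunit of the phosphatase that acts on lipins, was 1.62-fold higher in CD (log2 fold change 0.70 ± 0.15 SE, edgeR adjusted p = 0.0043). The gene of its catalytic subunit, CTDNEP1, was not analysed here.

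**Figure D2:**
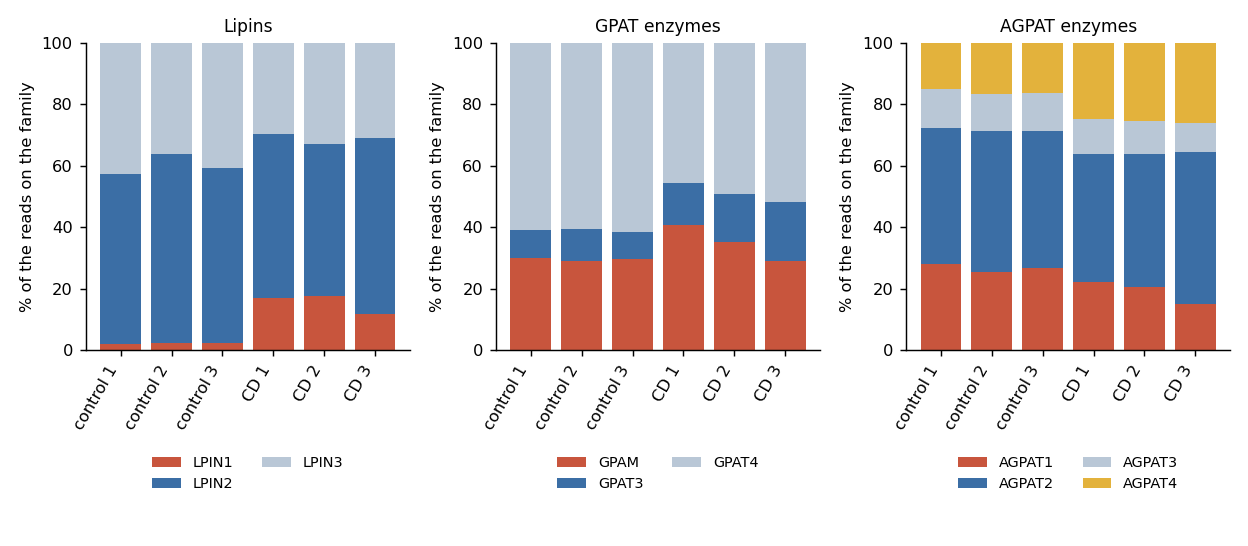
Share of the reads of each family (y axis, in %, summing to 100 in each bar) that fell on each gene in the 6 libraries (x axis), for lipins, GPAT enzymes and the AGPAT enzymes AGPAT1 to AGPAT4, without correction for gene length. LPIN1 is a thin band in the controls (2.10 to 2.47%) and a broader one in CD (11.9 to 17.6%), AGPAT4 widens from a mean of 16.1% to 25.6%, and GPAM shrinks from CD replicate 1 (40.7%) to CD replicate 3 (29.0%).

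DGAT2 encodes an enzyme of the last acylation that lies at the endoplasmic reticulum and droplets and is known for using newly made fatty acids. It was at 2.36, 1.81 and 2.92 CPM in the control and 8.24, 8.59 and 8.21 CPM in CD. The CD libraries lay close together, and all were above every control. The 3.49-fold change (95% interval 2.49 to 4.90, log2 fold change 1.80 ± 0.22 SE, edgeR adjusted p = 1.10e-04) rests on 25 to 53 reads per control library and 114 to 140 per CD library. Of the related acyltransferases, MOGAT1 had 1 read and MOGAT2 2 reads in the 6 libraries together, and DGAT2L6 had none, where a count of 0 allows up to 3 reads, or 0.165 to 0.217 CPM depending on the library, by counting error only. MOGAT3 was not analysed here. A planned comparison of the responses of DGAT1 and DGAT2 was therefore not made.

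PLIN3, also known as TIP47, is a perilipin found in the cytosol and on nascent droplets, and it is also known as a partner of the mannose 6-phosphate receptor. It had the largest log2 fold change of the 9 genes. Its level was 14.3, 11.5 and 15.0 CPM in the control and 97.6, 129 and 136 CPM in CD. Every CD library was far above every control. The mean rose from 13.6 ± 1.84 to 121 ± 20.5 CPM (SD, n = 3 each), an 8.89-fold change with a 95% interval of 6.81 to 11.6 (log2 fold change 3.15 ± 0.17 SE, edgeR adjusted p = 7.69e-07), and 108 of the tested genes had a larger log2 fold change. Unlike LPIN1, PLIN3 was lowest in CD replicate 1, and leaving out CD replicate 3 gave a log2 fold change of 3.03. Of the other perilipins, PLIN1 had 0 to 4 reads per library and PLIN5 none, and PLIN2 and PLIN4 were not analysed here.

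**Figure D3:**
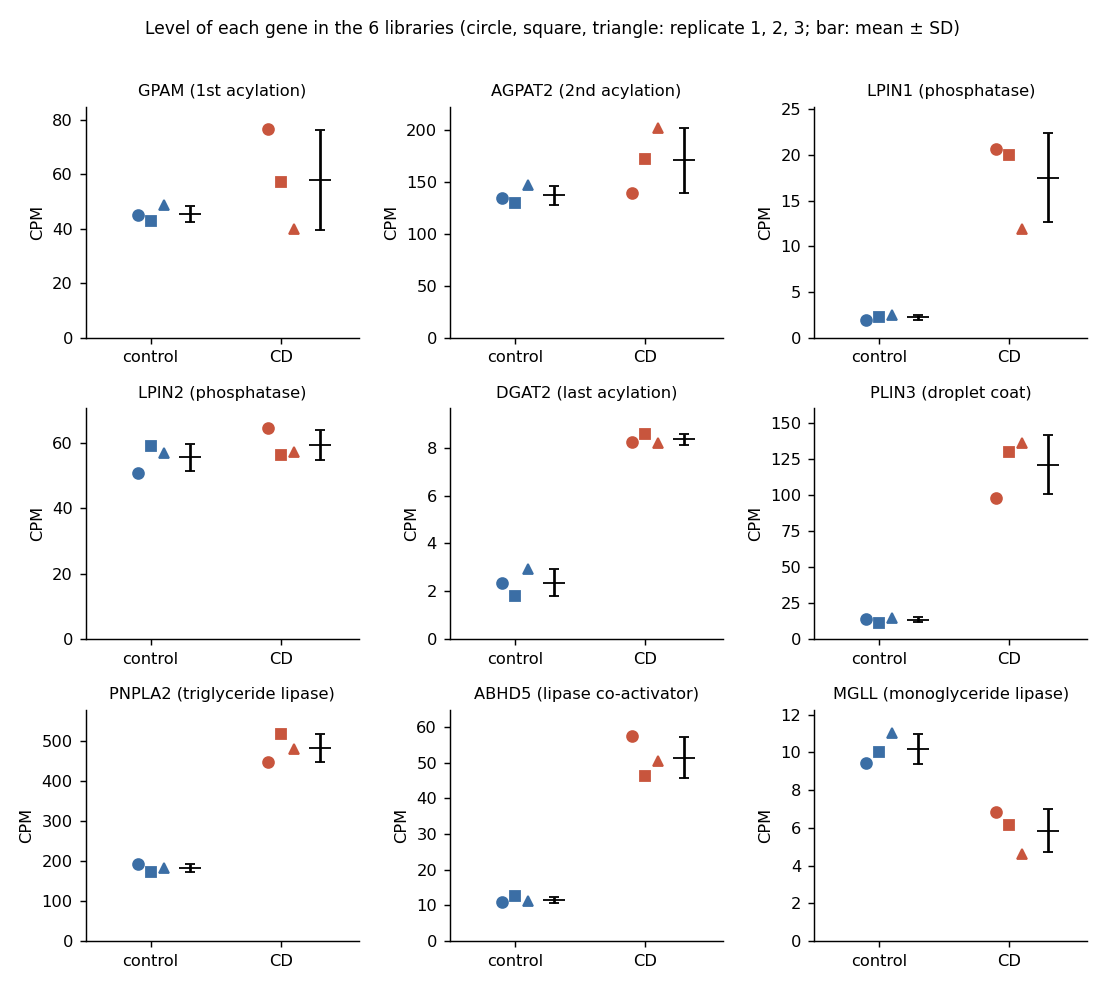
Level of each of the 9 genes in CPM (y axes, each from 0 and with its own scale) in the control (blue) and CD (orange) libraries, with a circle, square and triangle for replicates 1, 2 and 3 and a bar for the mean ± SD of 3 libraries. The groups are apart for LPIN1, DGAT2, PLIN3, PNPLA2, ABHD5 and MGLL, while for GPAM CD replicate 3 (39.9 CPM) lies below the controls and for AGPAT2 CD replicate 1 (139 CPM) lies among them.

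Of the other droplet coat and assembly genes, 7 were tested, 2 rose, 2 fell and 3 did not pass the test, a called share of 57.1% that is near the 47.7% of all tested genes. HSD17B11, which encodes a hydroxysteroid dehydrogenase that sits on droplets, was 1.96-fold higher (log2 fold change 0.97 ± 0.18 SE, edgeR adjusted p = 0.00162), and RAB18, a GTPase of the droplet surface, was 1.74-fold higher (0.80 ± 0.19 SE, adjusted p = 0.00623). AUP1, which encodes a droplet protein that recruits a ubiquitin-conjugating enzyme, was at 408, 399 and 463 CPM in the control and 213, 257 and 261 CPM in CD (log2 fold change -0.80 ± 0.12 SE, edgeR adjusted p = 5.35e-04). BSCL2, the seipin gene, whose product organises the sites where droplets form, was lower as well (-0.52 ± 0.12 SE, edgeR adjusted p = 0.00516). The perilipin PLIN3 thus rose beside lower levels of AUP1 and BSCL2, and the coat group as a whole had a median log2 fold change of -0.09 without PLIN3.

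PNPLA2 encodes adipose triglyceride lipase (ATGL), which removes the first chain from triglyceride. It was at 192, 172 and 183 CPM in the control and 448, 518 and 481 CPM in CD. The groups were far apart relative to their spread, and the level was 2.65-fold higher in CD, with a 95% interval of 2.22 to 3.15 (log2 fold change 1.40 ± 0.11 SE, edgeR adjusted p = 7.82e-06). With 2377 to 8441 reads per library it is the best counted of the 9 genes. Of its relatives, PNPLA3 had 0 to 3 reads per library, PNPLA1 had 4 reads and PNPLA5 none in the 6 libraries together, and PNPLA4 was not analysed here by symbol.

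ABHD5, also called CGI-58, encodes the co-activator of ATGL, which perilipins hold at the droplet surface. It was at 11.0, 12.6 and 11.1 CPM in the control and 57.6, 46.1 and 50.4 CPM in CD. All CD libraries were above all controls, and the level was 4.44-fold higher, with a 95% interval of 3.54 to 5.57 (log2 fold change 2.15 ± 0.15 SE, edgeR adjusted p = 2.81e-06). The log2 ratio of PNPLA2 to ABHD5 was 3.92 ± 0.18 in the control and 3.22 ± 0.26 in CD (SD, n = 3 each). It was lower by a factor of 1.62 in CD, and the groups did not overlap (difference -0.70, exact permutation test, two-sided, p = 0.1, adjusted over 3 differences p = 0.15). G0S2 and HILPDA, which encode inhibitors of ATGL, were not analysed here.

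LIPE, the hormone-sensitive lipase gene, whose enzyme acts mainly on diacylglycerol and also on cholesteryl esters, was at 28.3, 27.9 and 32.9 CPM in the control and 62.9, 72.1 and 59.8 CPM in CD, with no overlap. It was 2.18-fold higher (log2 fold change 1.13 ± 0.13 SE, edgeR adjusted p = 9.35e-05). The sum of PNPLA2 and LIPE was 212 ± 10.8 CPM in the control and 547 ± 39.8 CPM in CD (SD, n = 3 each), a ratio of 2.58. DDHD2, a lipase gene of the nervous system's triglyceride turnover, was 1.76-fold higher (0.81 ± 0.17 SE, edgeR adjusted p = 0.00333). UBXN4, which encodes a protein of endoplasmic reticulum-associated degradation, was 1.91-fold higher (0.93 ± 0.12 SE, edgeR adjusted p = 2.00e-04).

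MGLL encodes monoglyceride lipase, which releases the last chain and also breaks down the endocannabinoid 2-arachidonoylglycerol. It was the only gene of the 9 that was lower in CD, with 9.46, 10.0 and 11.0 CPM in the control and 6.82, 6.13 and 4.61 CPM in CD. All CD libraries were below all controls, and CD replicate 3 was the lowest. The mean fell from 10.2 ± 0.79 to 5.86 ± 1.13 CPM (SD, n = 3 each), to 0.577 of the control level, with a 95% interval of 0.425 to 0.783 (log2 fold change -0.79 ± 0.20 SE, edgeR adjusted p = 0.00798). Without CD replicate 3 it was -0.69 and still called. In the RefSeq annotation of another mink assembly MGLL overlaps KBTBD12, which had 1 read in the 6 libraries together, and none of the other genes of the 9 overlaps another gene there. ABHD12, which encodes a hydrolase of the same endocannabinoid and of lysophosphatidylserine, was lower too (217, 195 and 219 CPM in the control, 117, 142 and 154 CPM in CD, log2 fold change -0.61 ± 0.13 SE, edgeR adjusted p = 0.00304). For ABHD6, another monoacylglycerol hydrolase gene, the log2 fold change of -0.53 ± 0.21 SE did not pass the test (edgeR adjusted p = 0.0590).

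The 9 genes did not follow the same order over the CD libraries. LPIN1, GPAM and MGLL were highest in CD replicate 1 and lowest in CD replicate 3, as was HMGCS1 (1638, 1413 and 1159 CPM in CD replicates 1, 2 and 3), and 27.4% of all tested genes had this order. AGPAT2 and PLIN3 had the opposite order, like 25.7% of the tested genes, and the other 4 had neither. Relative to the control mean, the CD libraries ranged from 2.42 to 3.22 on the log2 scale for LPIN1, from -0.19 to 0.75 for GPAM and from 0.02 to 0.56 for AGPAT2. For DGAT2, PNPLA2 and ABHD5 they lay closer together. The coefficient of variation was 5.52 to 23.5% in the control and 2.53 to 31.8% in CD, lowest for DGAT2 and highest for GPAM among the CD values.

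**Figure D4:**
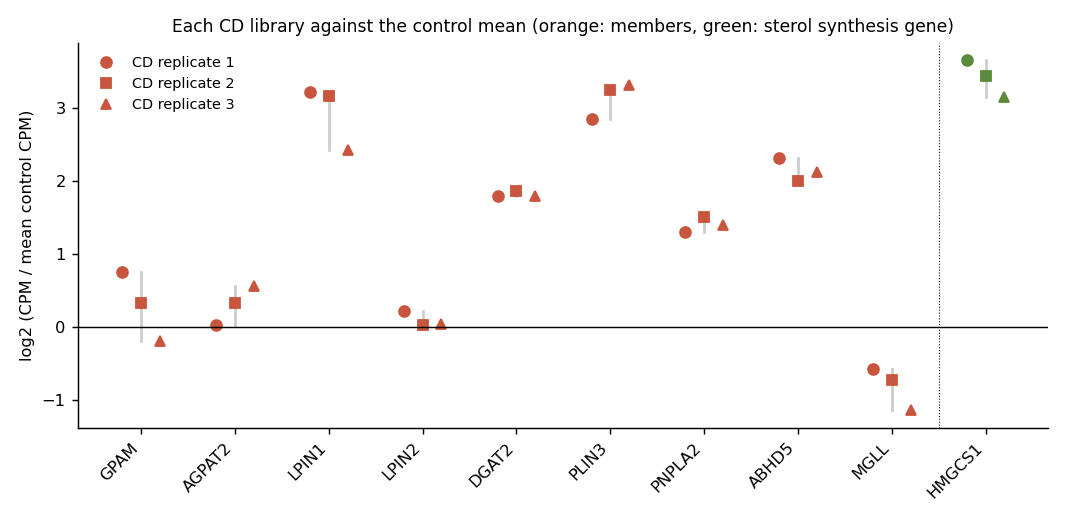
Log2 of the CPM in each CD library over the mean CPM of the controls (y axis) for the 9 genes (orange) and the sterol synthesis gene HMGCS1 (green), with a circle, square and triangle for CD replicates 1, 2 and 3. CD replicate 3 is the lowest for LPIN1 (2.42), GPAM (-0.19), MGLL and HMGCS1, and the highest for PLIN3 (3.32) and AGPAT2 (0.56).

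A wider list of the pathway held 53 further genes, of which 40 were matched, 12 were not analysed here and 1 (CIDEC) was left out because the description beside its symbol is that of another gene. Of the matched genes 12 fell under the filter on low counts, and of the 28 tested 11 were higher, 4 were lower and 13 did not pass the test. The called share, 53.6%, was near the 47.7% of all tested genes, and the median log2 fold change was -0.04, beside 1.40 for the 9 genes and 0.06 over all. Both lists were chosen with earlier results of these data known, so these medians do not test the pathway. Besides the genes described above, 3 of 7 genes of acyl-CoA and glycerol supply were higher and 4 did not pass the test. ACSL4, which encodes an acyl-CoA synthetase that prefers arachidonate, was at 11.0, 11.9 and 9.64 CPM in the control and 38.0, 18.0 and 14.4 CPM in CD, so that CD replicate 1 set much of the mean (log2 fold change 1.12 ± 0.32 SE, edgeR adjusted p = 0.0166). Without that library it was 0.59. GK5, of the glycerol kinase family, was at 2.29, 2.89 and 2.98 CPM in the control and 9.10, 4.23 and 4.61 CPM in CD (1.13 ± 0.31 SE, edgeR adjusted p = 0.0136), and without CD replicate 1 at a log2 fold change of 0.70. ACSL1, a long-chain acyl-CoA synthetase gene, had a log2 fold change of 0.56 ± 0.19 SE (edgeR adjusted p = 0.0334), and its call held in 8 of 14 alternative fits, over all of which the adjusted p reached 0.14.

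**Figure D5:**
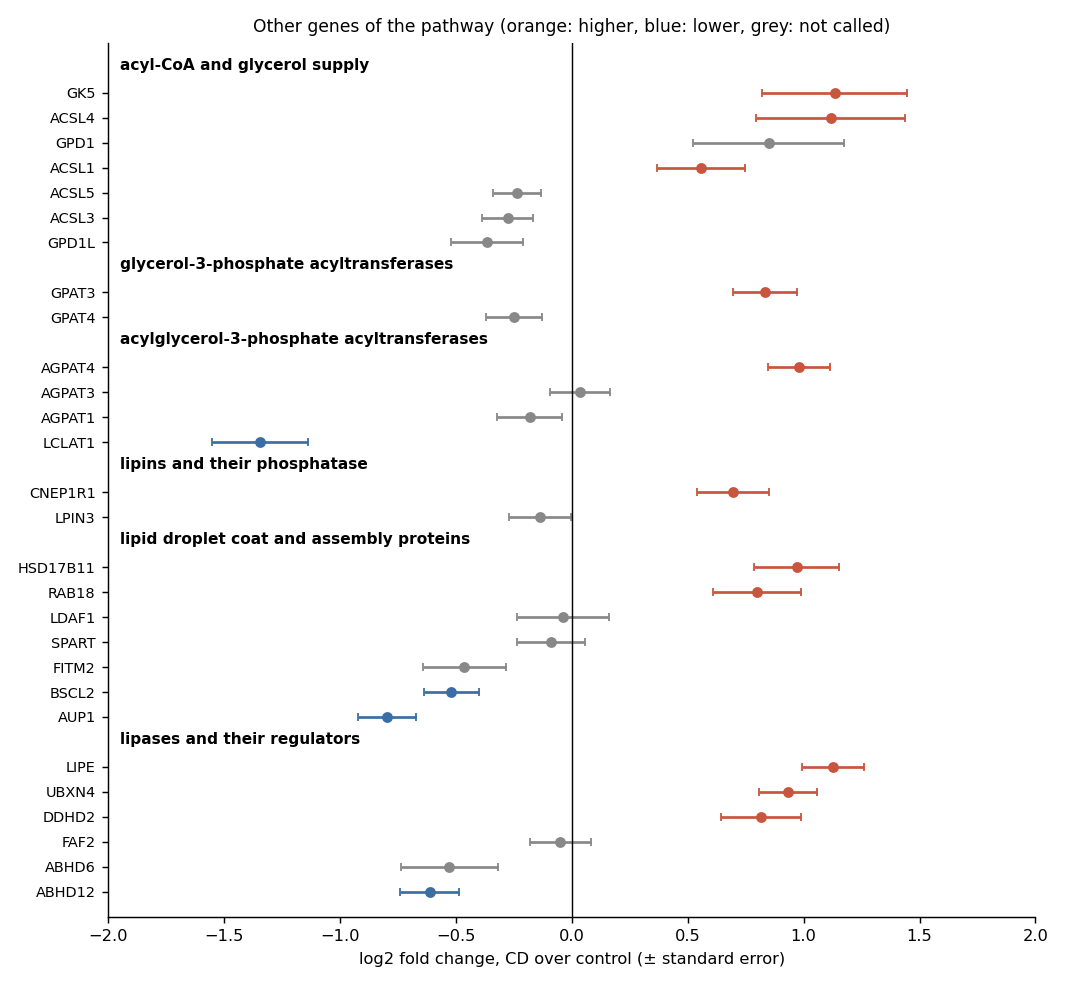
Log2 fold change of CD over control with its standard error (x axis) for the 28 tested genes of the wider list, grouped by role, in orange where higher (11), blue where lower (4) and grey where not called (13). Both directions occur among the AGPAT relatives, the droplet coat and assembly genes and the lipases, and no gene lies beyond 1.13 above or -1.35 below, while LPIN1 and PLIN3 lie near 3.

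The branches that draw on the same phosphatidate and diacylglycerol to make membrane phospholipids held 15 tested genes, of which 2 were higher and 2 were lower, or 26.7% called beside the 47.7% of all tested genes. Without CD replicate 3 the count was 8 of 15, where 58.6% of all tested genes were called. PCYT2, which encodes the rate-limiting enzyme of phosphatidylethanolamine synthesis from diacylglycerol, was at 390, 380 and 428 CPM in the control and 580, 701 and 748 CPM in CD (log2 fold change 0.76 ± 0.13 SE, edgeR adjusted p = 9.05e-04). PEMT, which encodes the methyltransferase from phosphatidylethanolamine to phosphatidylcholine, was 1.79-fold higher (0.84 ± 0.18 SE, edgeR adjusted p = 0.00371). The phosphatidylserine synthase genes both fell, PTDSS1 (log2 fold change -0.66 ± 0.10 SE, edgeR adjusted p = 5.81e-04) and PTDSS2 (-0.67 ± 0.12 SE, adjusted p = 0.00136). CHKB was not analysed here.

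Of 13 transcription factors and co-activators known to act on these genes, 8 were tested, 3 rose and 3 fell, or 75.0% called beside the 47.7% of all tested genes. SREBF1, whose product drives fatty acid and triglyceride synthesis genes, was at 634, 582 and 785 CPM in the control and 399, 424 and 372 CPM in CD, lower in every CD library than in any control (log2 fold change -0.74 ± 0.14 SE, edgeR adjusted p = 0.00146). For SREBF2, whose product drives sterol synthesis genes, the log2 fold change was 0.17 ± 0.14 SE (edgeR adjusted p = 0.34). PPARG, the adipocyte regulator, was low and fell from 8.29 ± 0.67 to 5.48 ± 0.35 CPM (SD, n = 3 each, edgeR adjusted p = 0.0186), a call that held in 10 of 14 alternative fits. PPARGC1B, a co-activator of these receptors, fell as well (-1.18 ± 0.23 SE, edgeR adjusted p = 0.00188). PPARD rose (0.59 ± 0.13 SE, edgeR adjusted p = 0.0036), and for PPARA, at 0.47 ± 0.23 SE, the test was not passed (adjusted p = 0.12). The LXR genes NR1H2 (0.59 ± 0.11 SE, edgeR adjusted p = 0.00165) and NR1H3 (0.68 ± 0.19 SE, adjusted p = 0.0127, called in 12 of 14 alternative fits) rose. MLXIPL, the ChREBP gene, had no read in any library, and PPARGC1A was under the filter on low counts.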

How the data were processed

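The authors sequenced poly(A) RNA of Mv1Lu cells, trimmed the reads with fastp 0.20.1, aligned them with STAR 2.7.2a to mink assembly NNQGG.v01 and compared groups with DESeq2 1.30.1. The counting program and its use of strand are not given in the sources used here, so counts of overlapping genes are uncertain. The authors deposited raw counts per gene, which were used here, with 4 further rows of reads on no gene (29.3 to 47.2% of the control and 31.1 to 41.4% of the CD libraries, left out). The deposited normalized expression files pair gene identifiers with values of other genes and were not used. Genes were matched by symbol or older symbol. The annotation at hand is of another assembly (ASM_NN_V1), so no coordinates, lengths or sequences are given.

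Counts were fitted with edgeR 4.0.16 in R 4.3.3 (filterByExpr with minimum count 10 and minimum total count 15, TMM, robust glmQLFit, glmQLFTest, condition as the only term, 6 libraries), tested on simulated data first. P-values were adjusted by Benjamini-Hochberg over 12148 genes and called under 0.05. Log2 fold changes had a median standard error of 0.18. Differences between genes used log2 (CPM + 0.5) and exact permutation tests.

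The genes and lists were chosen with earlier results of these data known. Named are the 10 genes, members of their families in the wider list, up to 3 called genes per direction and role (2 in the phospholipid branches), the tested SREBP, PPAR, LXR and ChREBP regulators with the co-activators beside them, and the treatment check genes, of which some are not reported here. Markers were listed for the cell type check, and the genes under Other observations were named after their values were seen. Alternatives were DESeq2 1.42.0, limma-voom (limma 3.58.1), scaling by DESeq2 size factors, upper quartile or total counts, no filter, at least 50 counts in 3 libraries, each library left out, the replicate number as a block and an adjusted p under 0.01, and for the differences a pseudocount of 1 or 0.1. Replicate numbers are used here only to name libraries. Same-numbered libraries did not deviate together, but 3 libraries per group cannot decide whether they were paired.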

Additional observations from a re-analysis of the deposited data

How the results depend on the processing

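The 6 called genes of the 9 kept their direction and call under all 14 alternative fits and at an adjusted p under 0.01. With each library left out, 6 to 7 of the 9 were called, 13 to 19 of the wider list, 4 to 8 of the phospholipid genes (8 without CD replicate 3), 4 to 6 of the regulators and 4410 to 7222 genes in all, and the AGPAT3 log2 fold change ranged from -0.054 to 0.096. The GPAM to AGPAT2 difference ranged from -0.37 to 0.36, with its sign turned without control replicate 1 (0.0021) or CD replicate 3 (0.36), and the other differences kept their sign. The cause was not tested. Of the other named genes, ACSL1, PPARG, NR1H3, ACSL4, GK5, PLPP6, PNPLA6 and the marker COL1A2 lost their call in 1 or more alternatives.

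With the replicate number as a block, 6 of the 9 genes, 15 of the wider list, 5 of the phospholipid genes, 5 of the regulators and 5408 genes in all were called, and ACSL1 (edgeR adjusted p = 0.0518) and PPARG (adjusted p = 0.0594) were not. The deviations of same-numbered libraries correlated at -0.024, -0.33 and -0.18. With 3 libraries per group these values cannot decide whether the numbers pair the libraries, and the labels do not say.

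The controls of LPIN1 and DGAT2 rest on 25 to 53 reads, and genes without reads may be present below 0.217 CPM. No group held enough libraries for a formal test of outlying samples, beyond the correlations between libraries and leaving each library out.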

Other observations

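The genes of this paragraph were chosen after their values were seen, by the family names DGK, PLPP and PNPLA. Diacylglycerol kinases catalyse the reverse of the lipin reaction, from diacylglycerol to phosphatidate. Of 9 such genes 7 were tested, 2 were higher in CD, 2 were lower and 3 did not pass the test, beside 47.7% called over all tested genes. DGKA went from 67.5 ± 1.90 to 161 ± 12.2 CPM (SD, n = 3 each), 2.39-fold (edgeR adjusted p = 1.35e-05), and DGKD was 1.65-fold higher (adjusted p = 7.90e-04). DGKZ went from 243 ± 15.2 to 137 ± 13.3 CPM (edgeR adjusted p = 2.82e-04), and DGKG, with 1.47 ± 0.30 CPM in the control and 0.618 ± 0.12 in CD, was lower as well (adjusted p = 0.00703). The kinases thus moved in both directions.

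Lipid phosphate phosphatases, which remove phosphate from phosphatidate and related lipids without the lipins' need for magnesium, included 5 tested genes, of which 3 were called, beside 47.7% over all tested genes. Of these, PLPP6 rose (log2 fold change 0.56 ± 0.20 SE, edgeR adjusted p = 0.0410, called in 6 of 14 alternative fits with an adjusted p of up to 0.18) and PLPP7, described as inactive (-1.18 ± 0.20 SE, adjusted p = 7.75e-04) and PLPP4 (48 reads in the controls and 5 in the CD libraries, adjusted p = 4.98e-04) fell. Of the patatin-like genes outside triglyceride breakdown, PNPLA8, a phospholipase gene of mitochondria and peroxisomes, was 2.57-fold higher (1.36 ± 0.21 SE, edgeR adjusted p = 5.74e-04), PNPLA6 was lower (-0.37 ± 0.12 SE, adjusted p = 0.0234, called in 11 of 14 alternative fits with an adjusted p of up to 0.11) and PNPLA7 did not pass the test (0.04 ± 0.14 SE, adjusted p = 0.82). A row with the symbol PLCE is described as AGPAT5, and its log2 fold change of -0.55 ± 0.21 SE did not pass the test (edgeR adjusted p = 0.0544), though it did in 7 of 14 alternative fits. PLPL4, described as PNPLA4, had 9 reads in the controls and 22 in the CD libraries and was under the filter on low counts.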
